A study of Oryza sativa with 6 samples.

Results

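The histone and chromatin assembly genes described here were chosen by name from the rice gene annotation. Taken were *MSI1*, *LHP1* and *CENH3*, every gene with a histone name, and the numbered genes of the families CMT, DRM, MET, DDM, SDG, HDAC, HDT, FAS, CHR and JMJ. The names gave 26 genes, of which 20 had a probe set paired with that gene alone, 26 probe sets in all out of 57258. With a signal of at least 20, the minimum for a test, 18 genes and 22 probe sets remained, among 25045 probe sets tested in the whole series. These 18 were 5 genes of histone H2B, *CENH3*, the chromatin assembly genes *MSI1* and *FAS2*, 4 DNA methyltransferase genes, *LHP1*, 2 SDG genes and 3 JMJ genes. No gene of H1, H2A, H3 or H4, and none of the families DDM, HDT and CHR, carries such a name in the annotation used here.

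RNA was measured on 6 GeneChip Rice Genome Arrays in stem bases of 7-day-old seedlings, 3 arrays of *crl1* and 3 of wild type (WT), both in the cultivar Taichung 65 and grown on agar plates under the same light cycle. *crl1* carries a mutation in *CRL1*, a transcription factor gene of the AS2/LOB family, and forms no crown roots. Each replicate pooled the stem bases of several seedlings, and the same replicate number in both genotypes marks 1 experiment. The signal of *CRL1* itself was not analysed here.

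In dividing cells, new DNA is wrapped around octamers of the histones H2A, H2B, H3 and H4, so that histone genes are transcribed mainly while DNA is replicated. The CAF-1 complex, with the subunits FAS1, FAS2 and MSI1, places H3 and H4 on the new DNA, and CENH3 replaces H3 at the centromeres. Other proteins then restore the marks of the parental chromatin: MET1, CMT and DRM enzymes methylate cytosines, SET-domain (SDG) proteins methylate histones, JmjC (JMJ) proteins remove such methyl groups, and LHP1 binds histone H3 methylated at lysine 27. In Arabidopsis and rice, loss of CAF-1 subunits disturbs the root and shoot meristems.

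The arrays had the same trimmed mean but differed in their upper range. The highest signal was 5761 in *crl1* replicate 3 and 5201 in WT replicate 3, against 15946 to 18869 on the other 4 arrays. The ratio of the 3′ to the 5′ control probe set of actin, a measure of RNA length after amplification, was 8.09, 7.57 and 3.27 in *crl1* replicates 1, 2 and 3 and 7.70, 5.40 and 3.24 in WT. The other control ratios did not all follow actin: that of elongation factor was 0.762, 0.166 and 0.0359 in *crl1* and 0.866, 0.161 and 0.144 in WT, lowest in replicate 3 of both, while GAPDH had 0.941, 11.3 and 1.24 in *crl1* and 0.611, 3.41 and 3.86 in WT, and cyclophilin 2.16, 2.05 and 2.51 in *crl1* and 2.77, 2.76 and 2.37 in WT. Of markers of other tissues, 6 of 7 root genes reached the signal minimum (*QHB* did not), and the 7 had a summed signal of 983 to 1231 in *crl1* and 1066 to 1453 in WT. Of 5 shoot meristem genes 4 reached it (*OSH43* did not), and the 5 had sums of 1823 to 2561 in *crl1* and 1705 to 2378 in WT. Of 3 genes of green tissue 2 did (*RBCS1* did not), and the 3 had sums of 4762 to 9734 in *crl1* and 4891 to 9376 in WT. No root, shoot or green tissue marker passed the test between the genotypes (limma, adjusted p of 0.127 or more). Before adjustment 4 of 12 (33.3%) had a limma p under 0.05, against 9.76% of all tested probe sets. They were *RBCS* and the root genes *LSI2* and *PIN2* with lower signals in *crl1*, and the meristem gene *OSH1* with higher ones. *LSI2*, a silicon transporter gene, had 27.8, 26.7 and 48.2 in *crl1* and 63.4, 55.1 and 72.0 in WT, with no overlap, and the part of such tissue differences in the results on the 18 genes was not tested.

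The first question was whether genes that package DNA differed between stem bases with and without crown root formation. None of the 18 genes passed the test of *crl1* against WT (limma adjusted p under 0.05, n = 3 arrays per genotype), while 0.651% of all tested probe sets did. At an unadjusted limma p under 0.05 there was 1 of the 18, or 5.56%, against 9.76% of all tested probe sets. Without replicate 2 there were 5 of the 18, and the share of all tested probe sets was not counted in that setting. The log2 fold change was below 0 in 11 genes (61.1%) and above 0 in 7, with a median of -0.05. Over all tested probe sets it was below 0 in 49.3%, with a median of 0.00344. The 95% interval of the fold change lay within 2-fold in either direction in all 18 genes, and in 90.4% of all tested probe sets. No gene passed a ratio of 2 or 0.5 in every replicate pair, which 0.228% of all tested probe sets did.

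**Figure D1:**
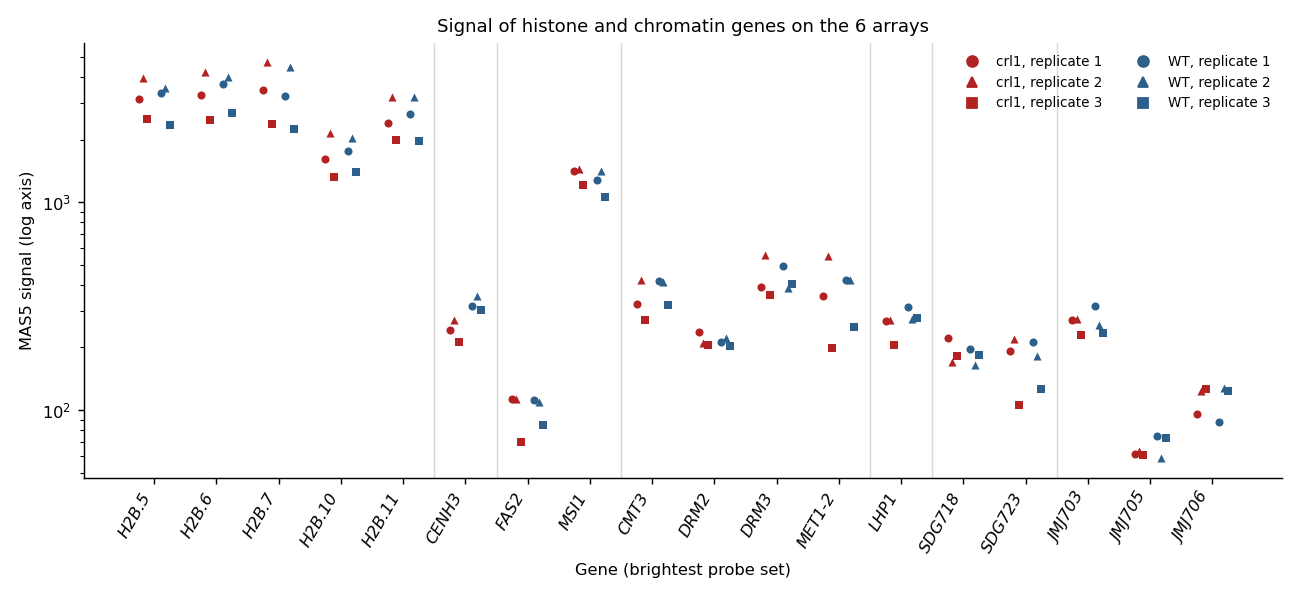
MAS5 signal (log axis) of the 18 tested genes, each at its brightest probe set, on the 3 *crl1* arrays (red, left) and the 3 WT arrays (blue, right); the symbol gives the replicate. *CENH3* and *LHP1* are the only genes whose *crl1* and WT points do not overlap, and replicate 3 (squares) lies lowest in both genotypes in 13 of the 18 genes. Heights of different genes are not comparable, since probe sets differ in brightness.

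*CENH3*, which encodes the histone H3 variant that marks centromeres, stood furthest from equality among the 18. Its signal was 243, 271 and 213 in *crl1* replicates 1, 2 and 3, against 318, 352 and 302 in WT. Every *crl1* array lay below every WT array, and the pairs had *crl1* to WT ratios of 0.766, 0.770 and 0.706. The mean was 243 ± 29.0 in *crl1* and 324 ± 25.6 in WT (SD, n = 3 each), a log2 fold change of -0.42 (standard error, SE, 0.10; 95% interval -0.65 to -0.19). The unadjusted limma p was 0.0025 and the adjusted p over all tested probe sets 0.15, so that *CENH3* did not pass. Its log2 fold change stayed between -0.44 and -0.38 in all settings tried, with adjusted p-values from 0.128 to 1. In these bulk samples, fewer dividing cells and less *CENH3* RNA per cell cannot be told apart.

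*LHP1*, the reader of H3 lysine 27 methylation, was the only other gene without overlap. It had 267, 271 and 205 in *crl1* and 314, 275 and 276 in WT, which leaves a narrow gap between the highest *crl1* and the lowest WT array. Its log2 fold change was -0.23 (SE 0.12, 95% interval -0.49 to 0.03, limma adjusted p = 0.582). These 2 genes are 11.1% of the 18, and 7.29% of all tested probe sets had genotypes that did not overlap, 3.64% with *crl1* below WT as here.

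The 5 H2B genes encode the core histone that pairs with H2A. *H2B.7* had signals of 3477, 4699 and 2377 in *crl1* and 3246, 4462 and 2239 in WT. *H2B.5* had 3146, 3955 and 2513 in *crl1* and 3343, 3533 and 2352 in WT. *H2B.6* had 3261, 4216 and 2485 in *crl1*, and 3702, 3987 and 2699 in WT. The genotypes overlapped in each of these genes, and replicate 2 was highest and replicate 3 lowest in both. *H2B.10* had 1606, 2144 and 1317 in *crl1*, against 1754, 2044 and 1399 in WT. *H2B.11* had 2392, 3216 and 1991 in *crl1*, against 2662, 3210 and 1977 in WT. The log2 fold changes of the 5 genes lay between -0.07 and 0.09, each with an SE of 0.08 or 0.09 (limma adjusted p from 0.804 to 0.916). *H2B.7* was higher in *crl1* in all 3 pairs, by ratios of 1.07, 1.05 and 1.06, and its interval of -0.10 to 0.27 included 0.

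These 5 genes are not independent readings. In the gene order of the annotation *H2B.10*, *H2B.7*, *H2B.6* and *H2B.5* follow each other on chromosome 1 with 4, 2 and 1 protein-coding genes between them, and *H2B.11* lies apart on the same chromosome. Coding sequences of H2B genes are very alike, so a probe set may read the RNA of several of them, and the probe set of *H2B.7* is of a type that the array's maker marks for possible cross-hybridisation. The other 5 H2B genes of the annotation, *H2B.2*, *H2B.3*, *H2B.4*, *H2B.9* and *H2B1*, have no probe set of their own in the table used here.

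*MSI1*, whose product is a WD40 subunit of CAF-1 and of Polycomb complexes, had 1413, 1446 and 1216 in *crl1* and 1282, 1405 and 1058 in WT. It was higher in *crl1* in all 3 pairs, with ratios of 1.10, 1.03 and 1.15, and the groups overlapped. The paper lists a rice *MSI1* gene among those raised in *crl1*, under a rule of a ratio above 2 in every replicate. No pair reached that ratio here, at this probe set or at the dimmer one below, and both 95% intervals lay within 2-fold. Whether the paper read its gene from the same probe set was not checked. The log2 fold change was 0.13 (SE 0.08, 95% interval -0.06 to 0.32, limma adjusted p = 0.695). A dimmer probe set of *MSI1* had 458, 511 and 461 in *crl1* and 447, 454 and 439 in WT, with no overlap and a log2 fold change of 0.09 (SE 0.09, limma adjusted p = 0.822). *FAS2*, the middle subunit of CAF-1, stood at 113, 113 and 70.3 in *crl1* and at 112, 109 and 85.0 in WT (log2 fold change -0.07, 95% interval -0.41 to 0.26). Among all 18 genes, *H2B.7* and *MSI1* were higher and *CENH3* and *LHP1* lower in every pair, 4 genes or 22.2%, against 31.2% of all tested probe sets that moved one way in all pairs.

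**Figure D2:**
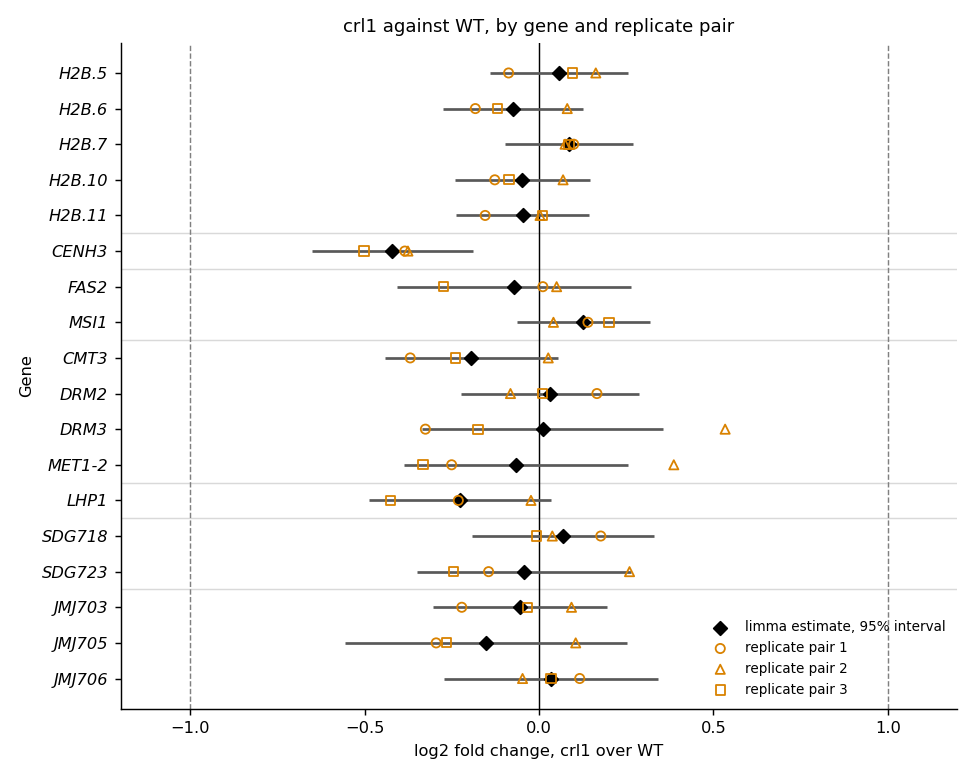
log2 fold change of *crl1* over WT for the 18 genes: black diamonds are limma estimates with 95% intervals, open symbols the log2 ratio of each replicate pair, and dashed lines mark 2-fold. Every interval lies inside the dashed lines, only that of *CENH3* leaves out 0, and pair 2 (triangles) is above 0 in 14 of the 18 genes.

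Of the DNA methyltransferase genes, *CMT3*, for methylation of CHG sites, had signals of 322, 421 and 272 in *crl1* and 416, 414 and 321 in WT. The groups overlapped, replicate 2 of *crl1* being the highest array, and the log2 fold change was -0.19 (SE 0.11, 95% interval -0.44 to 0.05, limma adjusted p = 0.634). *MET1-2*, which maintains CG methylation, had 354, 552 and 199 in *crl1* and 421, 422 and 250 in WT. Its pairs disagreed, with ratios of 0.840, 1.31 and 0.794 (log2 fold change -0.07, SE 0.14). *DRM2*, for methylation guided by small RNAs, varied little, at 238, 211 and 206 in *crl1* and 212, 223 and 204 in WT (0.03, 95% interval -0.22 to 0.29). *DRM3*, a relative of *DRM2*, had 392, 559 and 356 in *crl1* and 492, 386 and 403 in WT, and its pair 2 stood opposite to the other pairs (0.01, 95% interval -0.34 to 0.36). The second tested probe set of *DRM3* gave 0.05 (SE 0.12).

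Among the genes for histone methylation, *SDG718*, also named *EZ1*, encodes a Polycomb methyltransferase of H3 lysine 27. It had 221, 170 and 182 in *crl1* and 196, 165 and 184 in WT (log2 fold change 0.07, 95% interval -0.19 to 0.33). *SDG723*, also named *TRX1*, encodes a Trithorax-type methyltransferase of H3 lysine 4. Its signals were 192, 219 and 106 in *crl1* and 213, 183 and 126 in WT (-0.04, 95% interval -0.35 to 0.26), with replicate 3 lowest in both genotypes. Its dimmer tested probe set gave -0.03 (SE 0.24).

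The 3 JMJ genes encode histone demethylases. *JMJ705*, for H3 lysine 27, had 61.3, 63.3 and 60.9 in *crl1* and 75.2, 58.9 and 73.2 in WT (log2 fold change -0.15, 95% interval -0.56 to 0.25). *JMJ703*, for H3 lysine 4, had 272, 274 and 230 in *crl1* and 317, 257 and 235 in WT (-0.05, 95% interval -0.30 to 0.20). *JMJ706*, for H3 lysine 9, had 95.3, 123 and 126 in *crl1* and 87.9, 127 and 123 in WT (0.03, 95% interval -0.27 to 0.34). In these genes *crl1* and WT overlapped, and no limma adjusted p was under 0.852. The dimmer probe set of *JMJ706*, which is not marked for cross-hybridisation, was lower in *crl1* in all 3 pairs, at 66.4, 108 and 76.5 in *crl1* and 84.5, 121 and 81.3 in WT (log2 fold change -0.20, SE 0.15, limma adjusted p = 0.741), so the probe sets of this gene disagree in sign.

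*MET1-1*, the second MET1 gene, and *HDAC3*, a histone deacetylase gene, had probe sets below the minimum and were not tested. *MET1-1* ranged from 7.06 to 25.4 in *crl1* and from 14.2 to 26.9 in WT, and *HDAC3* from 1.05 to 13.2 in *crl1* and lay at 11.6 or above in WT. One probe set each of *DRM3* and *SDG723* was likewise below the minimum, at signals of up to 14.3. At this brightness a ratio between arrays rests on a weak signal.

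Among the 18 genes, replicate pair 2 leaned the other way from pairs 1 and 3. In pair 2, *crl1* over WT was above 1 in 14 of the 18 genes, with a median log2 ratio of 0.06, while in pairs 1 and 3 *crl1* over WT was below 1 in 12 of the 18, with medians of -0.15 and -0.10. The 14 include the 5 H2B genes, which are not independent readings, at ratios of 1.00 to 1.12. The shares of all tested probe sets above and below 1 in each pair were not counted. Over all tested probe sets the median log2 ratio was 0.000877, 0.02 and -0.01 in pairs 1, 2 and 3. Without replicate 2 the median of the 18 genes was -0.13, without replicate 1 it was -0.000107, and without replicate 3 it was 0.0325. *CENH3* was lower in *crl1* in pair 2 as in the others.

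The replicates of both genotypes were then compared by experiment. The experiment term of the fit, which compares the numbered replicates over both genotypes (2 arrays per experiment), passed in 7 of the 18 genes, or 38.9%, and in 21.4% of all tested probe sets (limma moderated F, adjusted p under 0.05). The 7 were the 5 H2B genes, which are not independent readings, *MET1-2* and *SDG723*. Outside the H2B genes the term passed in 2 of 13 genes, or 15.4%, which is below the share of all tested probe sets. Without the mean-variance trend of the fit only *H2B.7* passed. Experiment 3 was lowest in both genotypes in 13 of the 18 genes (72.2%), against 28.7% of all tested probe sets. The 13 include the 5 H2B genes, and this share was not counted among probe sets of like brightness. Experiment 2 was highest and experiment 3 lowest in both genotypes in 8 of the 18 genes (44.4%), against 8.12% of all tested probe sets. The 8 were the 5 H2B genes, again not independent readings, *CENH3*, *MSI1* and *MET1-2*. The H2B genes and *MSI1* had signals of at least 1000, and 28.5% of all tested probe sets that bright had this order.

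**Figure D3:**
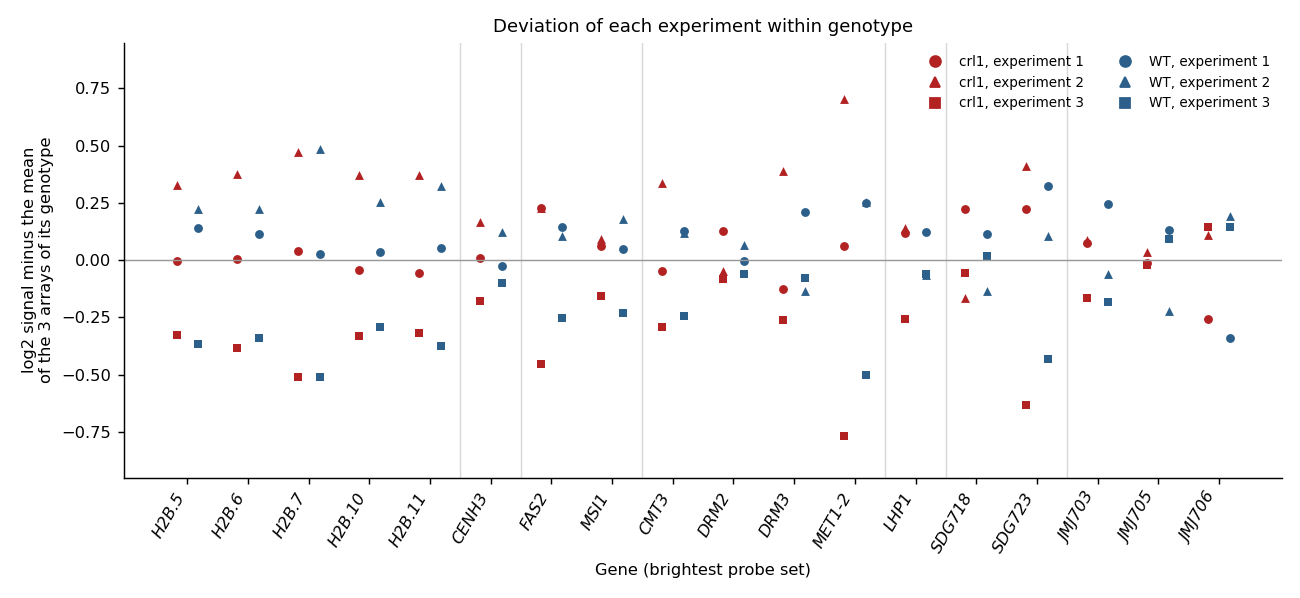
log2 signal of each array minus the mean of the 3 arrays of its genotype, for the 18 genes; *crl1* in red to the left, WT in blue to the right, symbols for experiments 1 to 3. The H2B genes share 1 order in both genotypes, with experiment 2 (triangles) highest and experiment 3 (squares) lowest, and *MET1-2* and *SDG723* are lowest in experiment 3.

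In the H2B genes experiment 3 lay below experiment 2 by a log2 difference of -0.99 to -0.62 (limma adjusted p of the experiment term 0.000602 to 0.00875). *H2B.7* had the largest difference of the 5, and experiment 2 over experiment 1 was 0.45 there. Bright probe sets as a class were also lower in experiment 3, and 53.2% of the 1772 probe sets with a signal of at least 1000 passed the experiment term, with a median log2 difference of experiment 3 minus experiment 2 of -0.36. The order of experiments seen in the H2B genes was found in 28.5% of those bright probe sets. After quantile normalization, which gives all arrays the same range, the H2B differences were -0.41 to 0.03, with the sign of *H2B.6* turned. Of the 5 genes only *H2B.7* and *H2B.10* then passed (limma adjusted p = 0.0302 and 0.0376). Under that scaling 33.4% of the bright probe sets and 18.4% of all tested probe sets passed. The 3′ to 5′ ratios of actin and elongation factor were lowest in replicate 3 of both genotypes, those of GAPDH and cyclophilin were not, and the part of RNA quality in these differences was not tested.

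*MET1-2* and *SDG723* kept their experiment differences under that scaling. In *MET1-2* the log2 difference of experiment 3 minus experiment 2 was -1.11 on the deposited values and -1.17 after quantile normalization (limma adjusted p of the experiment term 0.00495 and 0.00516). In *SDG723* it was -0.79 and -0.86 (limma adjusted p = 0.0118 and 0.0116), and its dimmer probe set also passed (-0.93, limma adjusted p = 0.0475). *CMT3* did not pass on the deposited values (-0.50, limma adjusted p = 0.0603) but passed after quantile normalization (-0.57, limma adjusted p = 0.0414). *FAS2*, at -0.52 on the deposited values, did not pass (limma adjusted p = 0.0887), nor did *CENH3* at -0.28 (0.26). Without replicate 3 none of the 18 genes passed the experiment term (limma, the smallest adjusted p being 0.234 for *H2B.7*, 3 at an unadjusted p under 0.05). The 3 were *H2B.7*, *H2B.10* and *H2B.11*, which are not independent readings, and the share of all tested probe sets was not counted in that setting. The labels number the experiments and give no other difference between them.

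**Figure D4:**
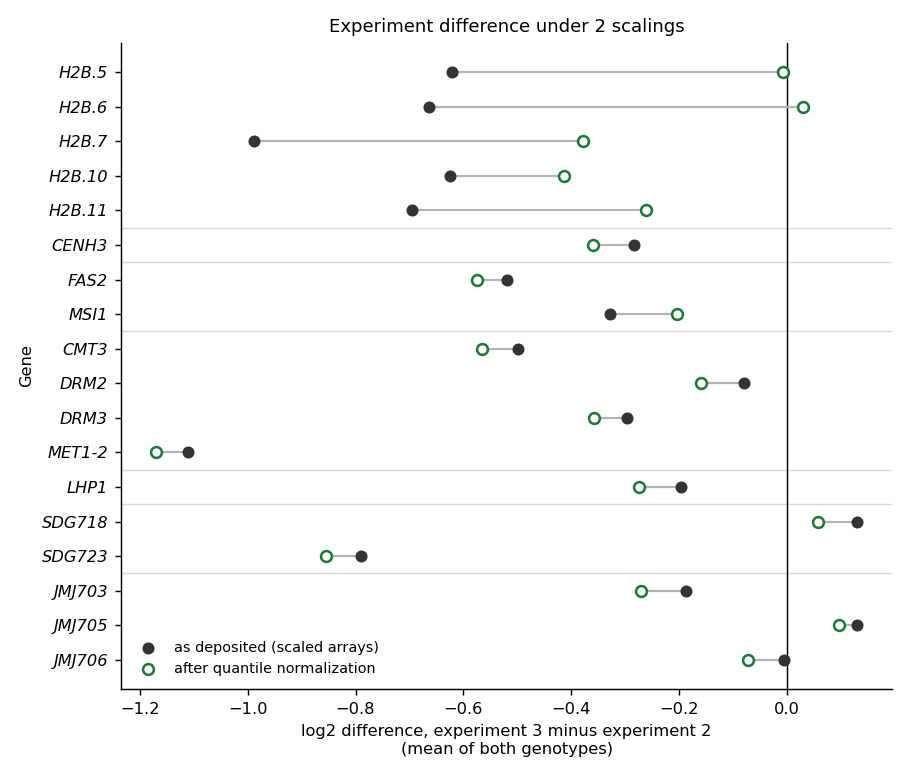
log2 difference of experiment 3 minus experiment 2, mean of both genotypes, for the 18 genes on the deposited scaling (filled) and after quantile normalization (open). The 5 H2B genes move towards 0 under quantile normalization, *H2B.6* past it, while *MET1-2* and *SDG723* stay at or below -0.79.

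Other genes of chromatin and of DNA replication were counted in the same fit. A list of 83 names gave 11 other chromatin genes with a probe set of their own. None of the 11 passed between the genotypes (limma, 1 at an unadjusted p under 0.05, or 9.09%). Of them, 8 had a negative and 3 a positive log2 fold change, with a median of -0.03. *FSM*, the rice ortholog of *FAS1*, and *GTE4*, both lower in *crl1* in the paper, were on the list. Neither is among the 11, since by these names the annotation used here paired neither with a probe set of its own, so they were not tested here. The paper did read both genes on these arrays. Of 23 genes of DNA replication and mitosis, 17 had a negative and 6 a positive log2 fold change with a median of -0.07. *CKS1*, which binds cyclin-dependent kinases, passed, with 614, 584 and 379 in *crl1* and 1082, 1148 and 690 in WT (log2 fold change -0.88, SE 0.09, limma adjusted p = 0.00475), and 4 of the 23 (17.4%) had an unadjusted p under 0.05, against 9.76% of all tested probe sets. *PCNA*, the sliding clamp of DNA polymerase, had 1278, 1830 and 1073 in *crl1* and 1615, 1810 and 1178 in WT. Its groups overlapped (log2 fold change -0.15, limma adjusted p = 0.673), and its experiments stood in the order of the H2B genes, experiment 3 minus experiment 2 being -0.69 (limma adjusted p of the experiment term 0.00765). *PCNA* is itself in the class with a signal of at least 1000, where 28.5% had this order and the median difference was -0.36. Its difference after quantile normalization was not read. The experiment term passed in 4 of these 23 genes (17.4%) and in 6 of the 11 chromatin genes (54.5%), against 21.4% of all tested probe sets. Of the 4 replication and mitosis genes, *PCNA* and *MCM7* had the order of the H2B genes in both genotypes, and *CKS1* and *MCM2* did not.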

How the data were processed

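Stem base RNA of 3 *crl1* and 3 WT samples was measured on arrays, 1 array per sample. Each deposited value is the intensity of a probe set, which the authors computed with the MAS5 algorithm in Affymetrix Expression Console and scaled to a common target on every array. No version of that program is given. After 123 control probe sets were removed, log2 signals of probe sets whose geometric mean over the arrays reached 20 entered limma 3.58.1 in R 4.3.3, with no pseudocount added. The model held genotype and the replicate number as a block, and eBayes followed the trend of variance with signal (prior df 7.33). P-values were adjusted by Benjamini-Hochberg over all tested probe sets, at a threshold of 0.05. Deviations of same-numbered *crl1* and WT arrays correlated at 0.39, 0.451 and 0.747; the numbers mark experiments in the labels. The methods describe the replicates as biological, each a pool of stem bases.

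Each gene was read from its brightest probe set. Probe sets paired with several genes (95) or with none (34727) were not members. Names came from a RefSeq table of assembly ASM3414082v1, and 8 homeobox genes named OSH were not read as histones. The members and the gene lists were chosen with earlier results of these data known. Values are given for every tested member, whatever its result. Promoter motifs were planned and not analysed here. The fit was tested on simulated data. Precision is limited by the few arrays. Each of these was tried in place of the main choice: leaving out a replicate, the block, the trend, the minimum or probe sets open to cross-hybridisation, raising the minimum to 50, adding 16 before log2, scaling by quantiles or by medians, and averaging the probe sets of a gene.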

Additional observations from a re-analysis of the deposited data

How the results depend on the processing

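No setting brought any of the 18 genes past the threshold for *crl1* against WT. Over all tested probe sets, 51 were higher and 112 lower in *crl1* (limma). These numbers were 1 and 4 without the replicate block, and 0 and 0 without the mean-variance trend. Leaving out 1 replicate gave 31 to 120 higher and 88 to 215 lower. The replicate block changed no call among the 18 genes. The experiment term passed in 7 genes, in 1 without the trend, and in 0 to 9 when a replicate was left out. The cause was not tested, and the share of all tested probe sets passing that term was not counted without the trend or without a replicate.

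Log2 fold changes near 0 turned sign when a replicate was left out. The lowest and highest values were -0.0364 and 0.0876 for *DRM2*, -0.251 and 0.179 for *DRM3*, -0.132 and 0.0305 for *FAS2*, and -0.076 and 0.00649 for *H2B.11*. They were -0.128 and 0.0297 for *JMJ703*, -0.0067 and 0.0753 for *JMJ706*, -0.292 and 0.0677 for *MET1-2*, and -0.195 and 0.0572 for *SDG723*. *JMJ706* also turned without probe sets open to cross-hybridisation (-0.2) and when its probe sets were averaged (-0.0831). Signal below the minimum limits what *HDAC3* and *MET1-1* can show.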

Other observations

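Among the other chromatin genes, *RFS*, a CHD3-type remodeller of rice, ran against the H2B genes. It had signals of 246, 177 and 439 in *crl1* and 313, 258 and 514 in WT, so that experiment 3 was highest and experiment 2 lowest in both genotypes (log2 difference of experiment 3 minus experiment 2 1.16, limma adjusted p of the experiment term 0.00104). It was lower in *crl1* in each pair, with a log2 fold change of -0.37 that did not pass (standard error 0.11, limma adjusted p = 0.249). *ROS1C*, a DNA glycosylase gene of active demethylation, had 165, 155 and 69.3 in *crl1* and 160, 147 and 70.0 in WT, lowest in experiment 3 (-1.12, limma adjusted p of the experiment term 0.0014). Both were chosen for mention after their values were seen.

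A probe set shared by *HDAC3* and 1 other gene was left out of all counts. Its signals were 27.4, 35.6 and 29.3 in *crl1* and 33.2, 25.9 and 23.8 in WT, and the groups overlapped.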
